A study of Mus musculus with 6 samples.

Results

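The fatty acid binding proteins are a family of small intracellular proteins that hold a long-chain fatty acid, or in one case a bile acid, in a barrel-shaped pocket. The 7 genes described here, Fabp1 to Fabp7, were taken by their gene names from an expression array and were covered by 9 probes, out of 37001 genes and 56583 probes. All 7 were bright enough to be tested, among 22946 tested genes. They were measured in 6 mouse teratomas, which are tumours of mixed tissue that embryonic stem cells form in a host that cannot reject them. The cells had been implanted beneath the skin of BALB/c nude mice, which lack a thymus but keep blood vessels and macrophages of their own. The 3 miR-124a tumours received a mimic of miR-124a-3p, a microRNA abundant in neurons, and the 3 control tumours received a microRNA negative control. In both groups the oligonucleotide was complexed with the carrier Atelogen QG and injected into the growing mass, 15 µg in 100 µL, every 3 days up to day 28. Injections began when tumours had reached 100 mm3 or more, about 10 days after implantation.

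The mice had been assigned to the groups at random, and each array holds RNA from a piece of a tumour of a different mouse. No array is of a purified tissue, so in what follows fewer cells of a type and less RNA per cell cannot be told apart. The 75th percentile of intensity lay between 198 and 224 on the 6 arrays, 63.4% to 65.9% of probes stood well above background, and saturation affected 0 spots. The miR-124a arrays lay in one row of the slide and the control arrays in the other, so that row and treatment cannot be told apart. Levels are given as scaled intensity, on which 100 is the 75th percentile of the array. Probes differ in how brightly they shine for the same amount of RNA, and levels of different genes were therefore not ranked against each other. A gene was called changed where limma gave an adjusted p under 0.05 over all tested genes.

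Each family member is best known from particular tissues. Fabp1 is the liver type and is shared with the absorptive cells of the small intestine, Fabp2 is the intestinal type of the same cells, and Fabp6, the ileal type, binds bile acids. Fabp4 is carried by adipocytes, and also by macrophages and capillary endothelium. Fabp3 is the heart type, found in heart and oxidative skeletal muscle, Fabp5 is the epidermal type and is also found in many other cells, and Fabp7 is the brain type of radial glia and astrocytes. The proteins move fatty acids towards membranes, storage, oxidation and nuclear receptors such as the peroxisome proliferator-activated receptors, and several of the genes are in turn known targets of those receptors or of the hepatocyte nuclear factor HNF4.

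The promoters of Fabp1 and Fabp2 are shown because these were the members that changed. RefSeq sequence (GRCm38.p6) held 5 of the 7 promoters; Fabp4 and Fabp5 are named only. Each run is the 250 bases before the gene start, at chr6:71199629-71199878 on the plus strand for Fabp1 and chr3:122894822-122895071 on the plus strand for Fabp2. Capitals mark the core promoter pattern TATAAA in Fabp1 and TGCACTTTG, the reverse strand of the hepatocyte nuclear factor 4 pattern CAAAGTNCA, in Fabp2.
Fabp1 promoter: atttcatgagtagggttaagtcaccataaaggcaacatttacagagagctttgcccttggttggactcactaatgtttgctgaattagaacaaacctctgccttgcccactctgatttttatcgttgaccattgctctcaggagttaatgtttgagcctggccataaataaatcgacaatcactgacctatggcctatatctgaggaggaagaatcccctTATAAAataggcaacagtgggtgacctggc
Fabp2 promoter: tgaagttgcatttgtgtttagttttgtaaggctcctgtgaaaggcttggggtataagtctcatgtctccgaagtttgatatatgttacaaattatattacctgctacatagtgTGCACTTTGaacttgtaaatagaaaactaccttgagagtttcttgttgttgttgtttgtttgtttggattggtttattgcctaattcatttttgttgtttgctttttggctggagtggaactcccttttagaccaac

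Both strands of the 5 promoters were searched for 3 patterns. The pattern CAAAGTNCA lay 137 bases before the Fabp2 start and was in 1.21% of all 27025 mouse promoters of this length. TATAAA lay 30 bases before the start of Fabp1, and its reverse strand stood 29 bases before the start of Fabp6; 13.0% of promoters hold it. The last pattern was an idealised direct repeat with a spacer of 1 base, for the peroxisome proliferator-activated receptors. Its exact letters were in none of the 5 windows and in 0.0370% of all promoters. On its reverse strand the Fabp1 window holds a run that differs from this pattern at 1 base. An exact search misses such a run, so the lack of a match does not show that a site is absent. All of these searches compare letters only, and binding was not tested.

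Of the 7 genes, 2 were lower in the miR-124a tumours and 0 were higher (limma, adjusted p), where 3.18% of all tested genes were called in either direction, 2.69% as lower and 0.492% as higher. They were Fabp1 and Fabp2, while Fabp6, the third member known from the small intestine, did not pass. Fabp4 was also lower in every miR-124a tumour than in every control tumour but did not pass the adjusted threshold. The other 4, Fabp3, Fabp5, Fabp6 and Fabp7, overlapped between the groups. Thus 3 of 7 members were lower without overlap and 0 higher without overlap, where 20.2% and 15.1% of all tested genes were so, 35.4% in either direction. An unadjusted p under 0.05 was reached by the same 3 members and by 27.1% of all tested genes (limma). The median log2 fold change of the 7 was -0.34, beside 0.00 for all tested genes. That median is the value of Fabp6, which lies near background, and it was -0.06 with normexp background correction, -0.03 over the 5 members well above background on all 6 arrays and -0.14 without miR-124a 2.

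**Figure D1:**
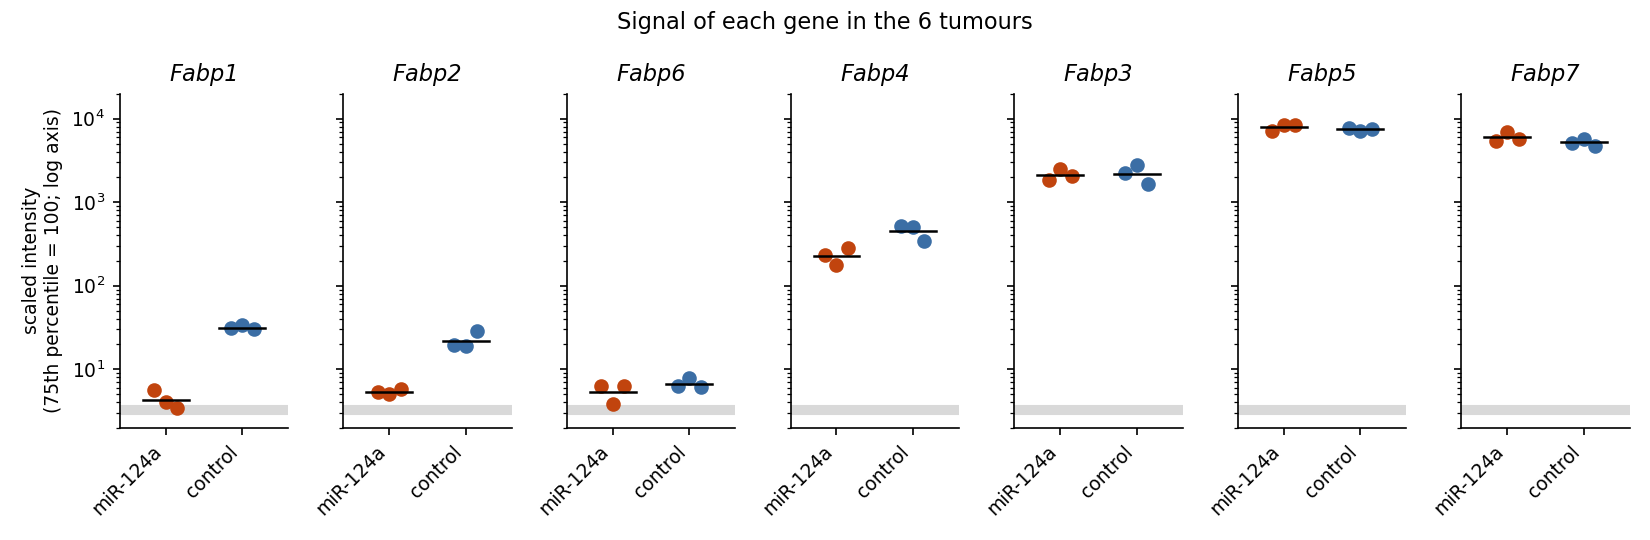
Scaled intensity of the brightest probe of each fatty acid binding protein (log axis, 100 being the 75th percentile of an array), with a point per tumour, miR-124a left and control right, and a black line at the mean of the log2 values. The grey band spans the lowest intensity called well above background on the 6 arrays, 2.92 to 3.59; Fabp1, Fabp2 and Fabp4 separate the groups and the other 4 do not, and heights of different genes cannot be compared.

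Fabp1 was the member that moved most. Its probe gave 5.61, 4.07 and 3.42 in miR-124a tumours 1 to 3, against 30.8, 33.5 and 30.1 in control tumours 1 to 3. The control tumours lay close together, and every miR-124a tumour was far below all of them. The log2 fold change was -2.88 ± 0.19 (SE, n = 3 per group, 95% interval -3.33 to -2.43), a 7.36-fold lower level, with an adjusted p of 0.0148 (limma). The probe was well above background in 3 of 3 control tumours and in 1 of 3 miR-124a tumours, so that it entered the test through the control tumours alone. The fold rests on miR-124a values near the lowest intensity that the arrays could tell from background, and under a filter on all 6 arrays Fabp1 was not tested.

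The Fabp1 probe lies at chr6:71154906-71154965 (mm9, plus strand), and the bases up to the end of the coding sequence are shown because they place the measurement at the end of the protein-coding part. Capitals mark the stop codon.
Fabp1 probe: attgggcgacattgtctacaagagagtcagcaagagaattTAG

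Fabp2, which carries fatty acids in the cells that line the villi, had 5.29, 5.04 and 5.76 in miR-124a tumours and 19.6, 18.9 and 28.5 in control tumours. All 6 values were well above background, and the lowest control tumour was more than 3 times the highest miR-124a tumour. The miR-124a values lay not far above the lowest intensity called well above background on those arrays, 3.19 to 3.59. The log2 fold change was -2.04 ± 0.18 (SE, n = 3 per group, 95% interval -2.46 to -1.61), 4.10-fold lower, with an adjusted p of 0.0182 (limma). The probe lies at chr3:122602276-122602335 (mm9, plus strand).

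The sizes of both falls depended on how background was treated, and the calls on the number of tumours. With normexp background correction and quantile scaling the log2 fold changes were -0.87 for Fabp1 (adjusted p = 0.0104) and -0.66 for Fabp2 (adjusted p = 0.0153, limma). Leaving out miR-124a 2, control 1 or control 2 put Fabp1 at adjusted p values of 0.0596, 0.0545 and 0.0599, and leaving out miR-124a 1, miR-124a 2, control 1 or control 2 put Fabp2 at 0.0898, 0.0703, 0.0576 and 0.0599 (limma), while the log2 fold changes stayed between -3.08 and -1.85.

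Fabp6, the bile acid carrier of the ileum, stood near background. It had 6.22, 3.86 and 6.29 in miR-124a tumours and 6.35, 7.84 and 6.15 in control tumours, and was well above background in 2 of 3 miR-124a tumours and 3 of 3 control tumours. The groups overlapped, with a log2 fold change of -0.34 ± 0.22 (SE, 95% interval -0.87 to 0.19) and an adjusted p of 0.353 (limma). The value was -0.11 without miR-124a 2 and -0.06 with normexp, and a probe this near background limits the size of any difference that could be seen. The probe, at chr11:43410973-43411032 (mm9, minus strand), lies within coding sequence and is shown because the gene is the one most limited by its signal.
Fabp6 probe: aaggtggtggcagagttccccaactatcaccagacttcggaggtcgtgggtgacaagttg

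Other genes of ileal bile acid handling were dim as well. Only 2 of the 6 on the list were tested, 0 changed and 1 had an unadjusted p under 0.05 (limma). For the bile acid receptor Nr1h4 the log2 fold change was -0.74, with an adjusted p of 0.123, and for Fgf15, the hormone it induces in the ileum, it was 0.51, with an adjusted p of 0.498 (limma). The uptake transporter Slc10a2 and the export subunit Slc51b were not well above background on any array.

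Markers of the absorptive intestinal cell were compared beside Fabp1 and Fabp2. Of 18 enterocyte markers 8 were tested. The test called 2 of them lower and left 6 uncalled; 4 were lower without overlap and 0 higher, and the median log2 fold change was -0.65. The 10 others were too dim to be tested. Apoa4, an apolipoprotein that the gut secretes with dietary fat, had 4.36, 4.90 and 3.92 in miR-124a tumours and 13.6, 21.6 and 19.8 in control tumours (log2 fold change -2.04 ± 0.19, SE, adjusted p = 0.0198, limma). Lgals4, a galectin of the intestinal lining, had 84.7, 72.5 and 101.9 in miR-124a tumours and 176.6, 248.3 and 208.6 in control tumours (log2 fold change -1.29 ± 0.18, SE, adjusted p = 0.0278, limma). Neither gene overlapped between the groups. The summed intensity of the tested markers was 373 to 535 in miR-124a tumours and 602 to 727 in control tumours, while Alpi, Cdx2, Cdh17, Slc5a1, Treh and Slc15a1, which define a mature villus or its progenitors, were not well above background on any array. Without miR-124a 1, miR-124a 2 or control 2 the adjusted p values of both Apoa4 and Lgals4 missed the threshold. That of Lgals4 also missed it without control 1 or control 3. With normexp Apoa4 stood at -0.50. Over the other settings the list median lay between -1.02, without miR-124a 3, and -0.30, with normexp. The part of such cells in the fall of Fabp1 and Fabp2 was not tested.

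Hepatocyte and yolk sac genes, the other setting of Fabp1, were compared too. Of 12 tested genes 0 changed, 5 were below an unadjusted p of 0.05 (limma), 5 were lower and 0 higher without overlap, and the median log2 fold change was -0.86. That median was -0.23 with normexp and -0.24 over the 7 genes well above background on all 6 arrays. With a mean over the probes of a gene it was -1.25. The gene with the smallest p, the lipoprotein component Apoa2, stood at -0.56 with an adjusted p of 0.0639, and with normexp at -0.49 with one of 0.0390 (limma); its other probe gave -2.36. The summed intensity of the list was 2803 to 5964 in miR-124a tumours and 3545 to 3718 in control tumours. The part of such cells in the values of Fabp1 was not tested.

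Fabp4 was read by a pair of probes that do not overlap. The brighter, at chr3:10204452-10204511 (mm9, minus strand), gave 232, 175 and 279 in miR-124a tumours and 521, 511 and 343 in control tumours. The other, at chr3:10208442-10208501 (mm9, minus strand), gave 24.4, 19.8 and 33.5 in miR-124a tumours and 62.6, 61.1 and 41.7 in control tumours. On both probes every miR-124a tumour was below every control tumour, control 3 was the lowest control tumour and miR-124a 3 the highest miR-124a tumour. The second probe lies in the coding sequence near the start of the protein and is shown because it reads another stretch of the transcript than the first.
Fabp4 probe: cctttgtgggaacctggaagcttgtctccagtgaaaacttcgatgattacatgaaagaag

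The log2 fold change of Fabp4 was -1.0 ± 0.23 (SE, n = 3 per group, 95% interval -1.57 to -0.44), a 2.01-fold lower level, and that of the second probe was -1.10 ± 0.24. The unadjusted p of the gene was 0.00458 and its adjusted p 0.0736 (limma). Over 13 other settings the adjusted p lay between 0.0517 and 0.196, and Fabp4 passed the threshold under 0 of them.

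Markers of the cells in which Fabp4 is best known were compared in the same way. Of 10 tested adipocyte genes 0 changed, 4 had an unadjusted p under 0.05 (limma) and the median log2 fold change was -0.61. The thermogenic protein Ucp1 had the smallest p, with 4.62, 2.11 and 3.56 in miR-124a tumours and 15.9, 17.7 and 8.13 in control tumours (log2 fold change -2.01, adjusted p = 0.0532, limma). Its miR-124a values lay near the lowest intensity called well above background on those arrays, 3.19 to 3.59. Ucp1 was not tested under the filter on all 6 arrays. With normexp its log2 fold change was -0.43 and the list median -0.29. It passed under 1 of 12 other settings, without control 3 (adjusted p = 0.0499, limma). The summed adipocyte intensity was 229 to 264 in miR-124a tumours and 300 to 501 in control tumours, without overlap. Of 13 endothelial genes 0 changed and 1 had an unadjusted p under 0.05 (limma), with a median of -0.04 and summed intensities of 2723 to 3768 in miR-124a tumours and 2728 to 3464 in control tumours; the angiopoietin receptor Tek had the smallest p (log2 fold change -0.59, adjusted p = 0.129, limma). Of 12 macrophage genes 0 changed and 0 had an unadjusted p under 0.05 (limma), with a median of -0.04 and summed intensities of 10407 to 12364 in miR-124a tumours and 10155 to 13651 in control tumours. Their share in the lower Fabp4 values was not tested.

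Fabp3, the heart and muscle type, overlapped between the groups and did not pass the test. Its brighter probe, at chr4:129992652-129992711 (mm9, plus strand), gave 1865, 2478 and 2059 in miR-124a tumours and 2211, 2762 and 1662 in control tumours. The control tumours spanned the whole range of the miR-124a tumours. The log2 fold change was -0.03 ± 0.21 (SE, n = 3 per group, 95% interval -0.54 to 0.47), with an adjusted p of 0.936 (limma). The other probe, at chr4:129992643-129992702, shares 51 bases with it and is no independent reading; its log2 fold change was -0.05 ± 0.20. The sign of so small a value has no meaning here, and under quantile scaling it was 0.087.

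Muscle genes differed between the groups although Fabp3 did not pass the test. Of 19 tested skeletal and cardiac muscle genes 14 fell and 0 rose (limma), with a median log2 fold change of -1.48, and 15 were lower without overlap. Myog, a transcription factor of muscle differentiation, had 590, 593 and 761 in miR-124a tumours and 1806, 2252 and 2011 in control tumours (log2 fold change -1.65 ± 0.15, SE, adjusted p = 0.0182, limma). Actc1, the cardiac actin, and Tnnc1, the troponin C of heart and slow muscle, stood at -1.39 ± 0.13 and -1.09 ± 0.11 on the log2 scale (SE), with adjusted p values of 0.0198 and 0.0214 (limma). The summed muscle intensity was 19683 to 26040 in miR-124a tumours and 50903 to 78194 in control tumours. The 14 muscle genes called became 0 without miR-124a 1, miR-124a 2, control 1 or control 2 and 8 without control 3. The 5 genes that did not pass are named after their values were seen. They are known from heart or from heart and slow muscle, but so are Actc1 and Tnnc1, which passed. Myh6 and Myl2 had values of -2.14 and -1.89 on the log2 scale, Myh7 and Nppa of -0.03 and -0.10, and Ryr2 of 0.76 (adjusted p = 0.225, 0.0837, 0.932, 0.555 and 0.146, limma). The part of muscle in the values of Fabp3 was not tested.

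Fabp5, the epidermal type, was bright in all tumours. It had 7147, 8291 and 8293 in miR-124a tumours and 7632, 7180 and 7450 in control tumours. The groups overlapped, and the log2 fold change of 0.09 ± 0.10 (SE, 95% interval -0.15 to 0.33) had an adjusted p of 0.591 (limma). Its probe lies at chr3:10016185-10016244 (mm9, plus strand). Fabp5 is known to have processed copies elsewhere in the mouse genome, and whether their transcripts reach this probe was not tested. Of 11 tested keratinocyte genes 0 changed and 0 had an unadjusted p under 0.05 (limma), with a median of -0.34; Krt10, a keratin of differentiated epidermis, had the smallest p (log2 fold change -0.76, adjusted p = 0.216). The summed keratinocyte intensity was 4514 to 7986 in miR-124a tumours and 5538 to 8870 in control tumours.

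Fabp7, the brain type, had the highest log2 fold change of the 7, short of the threshold. It had 5467, 6925 and 5697 in miR-124a tumours and 5164, 5673 and 4757 in control tumours. The highest control tumour, control 2, lay above the lowest miR-124a tumour, so the groups overlapped. The log2 fold change was 0.21 ± 0.13 (SE, 95% interval -0.10 to 0.52), with an adjusted p of 0.332 (limma). It was 0.40 both with quantile scaling and with normexp (adjusted p = 0.101 and 0.0722, limma), and 0.11 without miR-124a 2. Fabp5 stood at 0.30 with quantile scaling and 0.28 with normexp. The probe lies at chr10:57508039-57508098 (mm9, plus strand).

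Markers of glial and neuronal cells were compared beside Fabp7. Of 15 radial glia and astrocyte genes 0 changed, 6 had an unadjusted p under 0.05 (limma), 4 were higher and 1 lower without overlap, and the median log2 fold change was 0.16. Sox9, a transcription factor on the glial list, had 309, 301 and 314 in miR-124a tumours and 240, 236 and 227 in control tumours (log2 fold change 0.40 ± 0.08, SE, adjusted p = 0.0595, limma). Its other probe had a log2 fold change of -0.04, and the mean of its probes one of 0.18 (adjusted p = 0.227, limma). Of 9 neuronal genes 0 changed, although 7 had an unadjusted p under 0.05 (limma), 7 were higher without overlap and all 9 had values above 0, with a median of 0.48. The neuronal tubulin Tubb3 had a log2 fold change of 0.58 ± 0.12 (SE, adjusted p = 0.0556, limma). Sox9 and Tubb3 each passed under 2 of 13 other settings. Under quantile scaling and under normexp both passed, with adjusted p values of 0.0499 and 0.0171 for Sox9 and 0.0357 and 0.0158 for Tubb3 (limma). The neuronal genes called higher were then 2 and 5 of 9, and the glial genes 1 higher under quantile scaling and 3 higher and 1 lower under normexp. The summed glial intensity was 14092 to 14927 in miR-124a tumours and 11952 to 14087 in control tumours, the neuronal one 20136 to 25007 in miR-124a tumours and 15334 to 17187 in control tumours, and the part of glial cells in the values of Fabp7 was not tested.

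**Figure D2:**
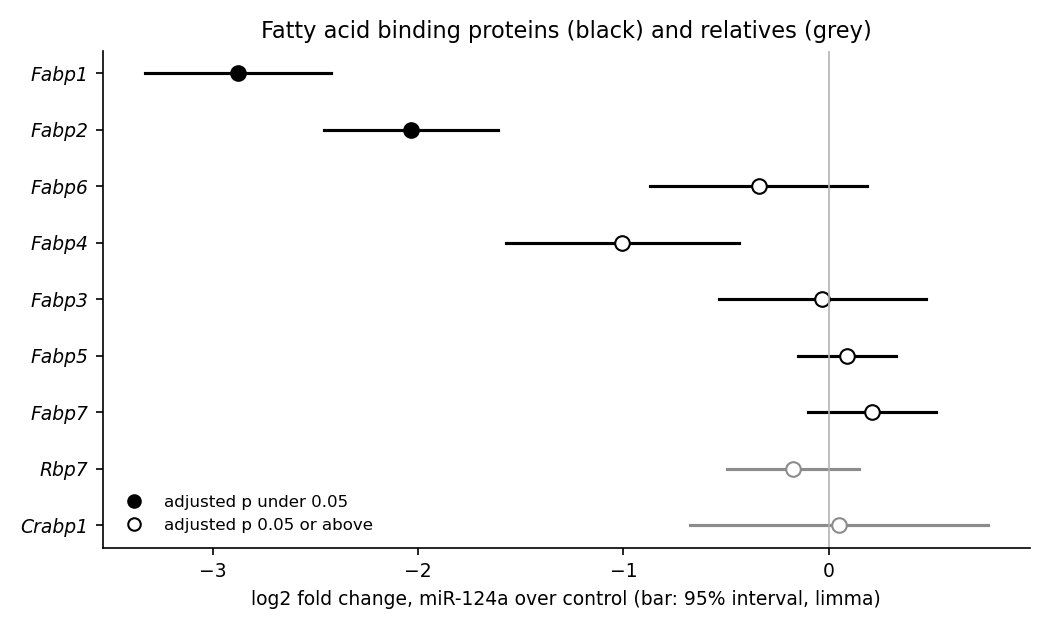
Log2 fold change of miR-124a over control for the 7 fatty acid binding proteins (black) and for 2 relatives (grey), with the 95% interval from limma as a bar. Filled circles passed an adjusted p of 0.05; these are Fabp1 at -2.88 and Fabp2 at -2.04, and the interval of Fabp4, -1.57 to -0.44, also lies below 0 although its adjusted p was 0.0736.

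The members were next set beside their relatives. Cellular retinol and retinoic acid binding proteins share the barrel fold, and of 8 relatives on the list 3 were tested, with 0 at an unadjusted p under 0.05 (limma); Crabp2 was not analysed here. For Rbp7, a retinol carrier of adipose tissue and endothelium, the log2 fold change was -0.17 ± 0.14, and for Crabp1, a retinoic acid carrier, it was 0.05 ± 0.30 (SE), with adjusted p values of 0.433 and 0.927 (limma). The sign of Crabp1 turned when miR-124a 1, miR-124a 2 or control 2 was left out. Fabp4 and Fabp5 lie in a cluster on chromosome 3, in the order Fabp5, Pmp2, Fabp9, Fabp4 and Fabp12 in the RefSeq annotation, with the noncoding gene Gm33365 and the pseudogene Gm9833 between Fabp5 and Pmp2. Of the genes between and beside them, Pmp2, the myelin member, and Fabp12 were not well above background on any array, and Fabp9, the testis member, was so on 2. Fabp2 lies on the same chromosome far from this cluster.

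Genes that handle the same fatty acids were compared by function, and 4 of 69 tested genes changed, all lower. Over all tested genes 3.18% were called, 2.69% as lower and 0.492% as higher (limma). Of all tested genes 20.2% were lower and 15.1% higher without overlap, to be set beside the counts of each list below. In uptake and activation 1 of 12 fell, the fatty acid translocase Cd36, with 34.9, 31.6 and 41.2 in miR-124a tumours and 60.4, 69.0 and 59.1 in control tumours (log2 fold change -0.81 ± 0.13, SE, adjusted p = 0.0366, limma); with normexp it stood at -0.46. The median of that list was 0.02, with 2 genes lower and 2 higher without overlap. In triglyceride synthesis, storage and lipolysis 1 of 19 fell, G0s2, an inhibitor of the lipase that opens stored fat, with 33.9, 36.5 and 39.0 in miR-124a tumours and 68.8, 82.1 and 71.8 in control tumours (log2 fold change -1.02 ± 0.11, SE, adjusted p = 0.0214, limma). The median was -0.26, and 8 of the 19 were lower and 0 higher without overlap.

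In mitochondrial and peroxisomal fatty acid oxidation 1 of 19 fell, while 17 had values below 0 and 16 were lower in every miR-124a tumour than in every control tumour. The median log2 fold change was -0.47. The gene that passed, Acads, the dehydrogenase for short-chain acids, had 104.9, 101.4 and 127.6 in miR-124a tumours and 198.3, 282.7 and 194.7 in control tumours (log2 fold change -1.0 ± 0.18, SE, adjusted p = 0.0458, limma). Oxidation genes are abundant in muscle, whose summed marker intensity also differed between the groups as given above, and the part of muscle in these values was not tested. With normexp 4 genes of this list passed, as did 2 of the uptake list and 3 of the triglyceride list, and without the filter on dim probes 0 of each passed.

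Among lipid-sensing transcription factors 1 of 15 fell, Hnf4a, the hepatocyte nuclear factor of liver and gut. It had 8.14, 6.04 and 10.8 in miR-124a tumours and 17.4, 20.9 and 26.5 in control tumours (log2 fold change -1.40 ± 0.25, SE, adjusted p = 0.0458, limma), and -0.45 with normexp. The median of the list was -0.40, and 10 of the 15 were lower and 0 higher without overlap. The peroxisome proliferator-activated receptors, named for their known role with these carriers, did not pass, with log2 fold changes of -0.61 for Ppara, -0.40 for Ppard and -0.26 for Pparg. Cd36, G0s2, Acads and Hnf4a each lost their call when miR-124a 1, miR-124a 2, control 1 or control 2 was left out, Cd36, Acads and Hnf4a also without control 3, and Acads also without miR-124a 3, with highest adjusted p values of 0.149, 0.114, 0.154 and 0.150 over all settings (limma).

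**Figure D3:**
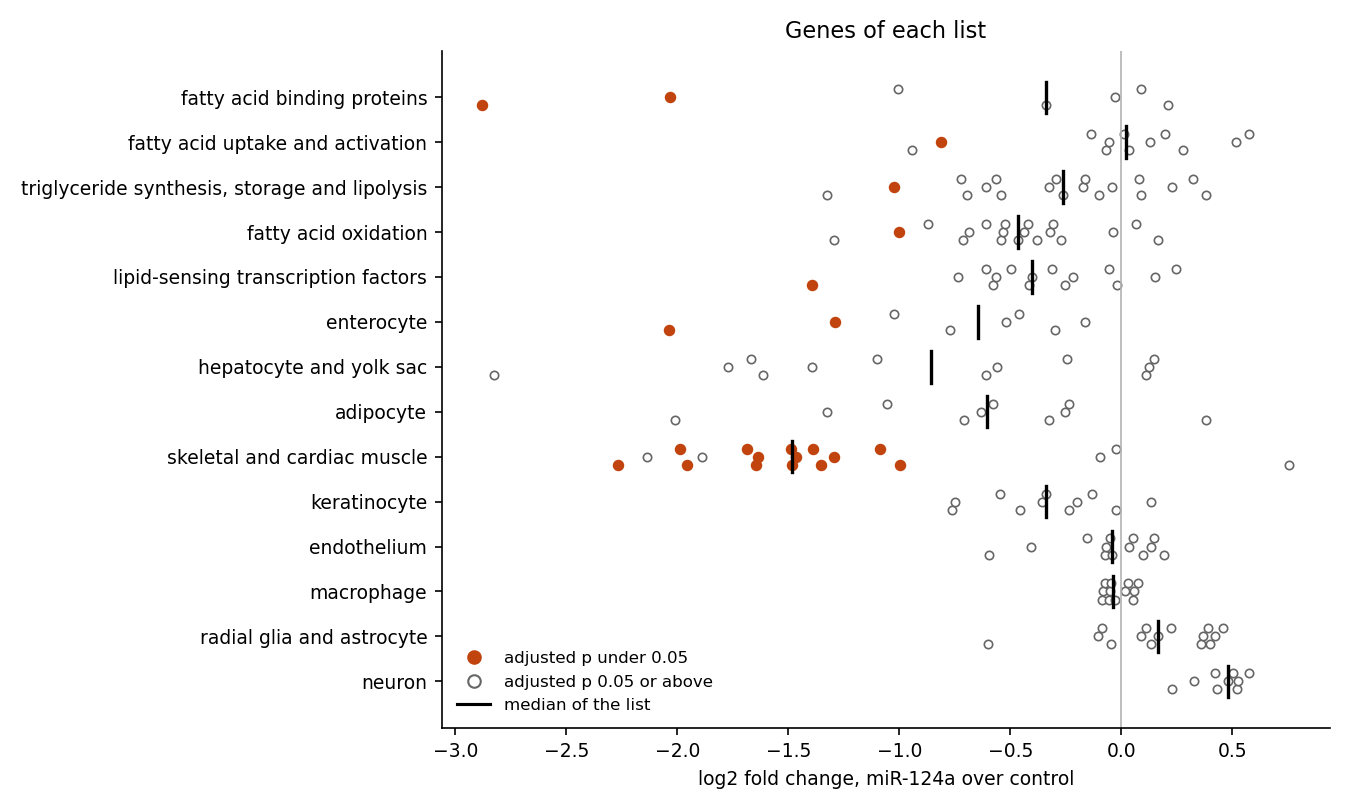
Log2 fold change of miR-124a over control for each tested gene of the fatty acid binding proteins, of 4 lists of lipid genes and of 9 lists of cell type markers, with the list median as a black line. Orange points passed an adjusted p of 0.05 (limma); they are 14 of 19 muscle genes, 2 of 8 enterocyte genes, 2 of the 7 fatty acid binding proteins and 1 gene in each lipid list.

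For each member the genes with the most similar profile over the 6 tumours were found by the root mean square difference of log2 signals, each centred on its own mean. Near Fabp1 were the cytochrome P450 Cyp2c65 at 0.34, the pancreatic and gastric protein Reg1 at 0.42 and the pepsinogen Pga5 at 0.43, where the median over all genes was 1.47. Among the nearest to Fabp2 were a noncoding probe without a symbol at 0.16 and Atcayos at 0.19 (median over all genes 1.05). The likeness to Fabp1 is taken over both groups, and so rests in part on the miR-124a values. In miR-124a tumours Fabp1 was well above background in 1 of 3 and Cyp2c65 and Reg1 in 0 of 3. Values there are mostly background signal, so the order of these genes has no meaning. Where miR-124a values were below the lowest intensity called well above background, they were raised to it. Cyp2c65 and Reg1 were then 2.19-fold and 7.36-fold lower in miR-124a tumours than in control tumours. That intensity is no strict limit of detection, since Fabp1 lay above it in every miR-124a tumour but was called in 1 of 3. These genes were chosen for their likeness to Fabp1, so their lower values are no separate result. Pga5 had 64.2, 28.7 and 45.3 in miR-124a tumours and 178, 364 and 218 in control tumours.

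Nearest to Fabp4 were the pancreatic carboxypeptidase Cpa1 at 0.10, a noncoding probe at 0.11 and the myosin Myo18a at 0.12 (median over all genes 0.60). The endothelial gene Mmrn2, at 0.03, was nearest to Fabp3, followed by Cdh13 at 0.04 and Chst7 at 0.05. Fabp5 varied by 0.21 between its lowest and highest tumour on the log2 scale and had Nsdhl, Acp2 and C1d as its nearest, at 0.02 to 0.03. Fabp7 varied by 0.54 and had Alg2, Klhl5 and Hacd3, at 0.02 to 0.03. Ccl11, at 0.06, was nearest to Fabp6, followed by a pair of probes without a symbol. These likenesses are over 6 tumours and are a description.

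**Figure D4:**
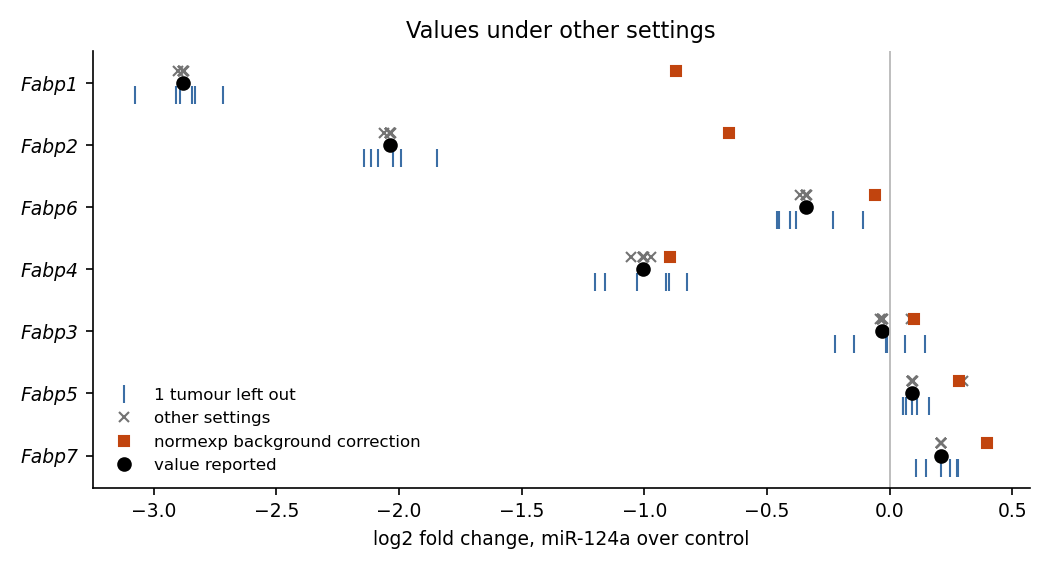
Log2 fold change of miR-124a over control for the 7 fatty acid binding proteins as reported (black) and under the other settings: normexp background correction (orange squares), the remaining settings (grey crosses) and each tumour left out in turn (blue ticks). Fabp1 and Fabp2 remain below 0 throughout but shrink to -0.87 and -0.66 with normexp, Fabp4 lies between -1.20 and -0.82, and Fabp3 falls on both sides of 0.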

How the data were processed

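Signal was read from the 6 scanner files, whose processed intensity had, per the file headers, been corrected for background by Agilent Feature Extraction 11.5.1.1 with no scaling from array to array. The log2 values that the authors deposited equal the log2 intensity minus a constant per array (SD of the difference 0.0029). Spots of a probe were averaged, the log2 of the array's 75th percentile was subtracted, and 22 outlier probes were left out. A probe entered the test if it was well above background in all 3 tumours of either group (35719 probes), and the brightest tested probe stood for a gene. Groups were compared with limma 3.58.1 (lmFit and eBayes, R 4.3.3, no covariates), with Benjamini-Hochberg adjustment over 22946 genes. Gene names came from the RefSeq table (GRCm38.p6) by accession for 32994 probes, else by symbol (10224), older symbol (520) or the file's own name (12867). Positions of probes follow the annotation of the array (mm9). For the folds given for Cyp2c65 and Reg1, each miR-124a value was the higher of 2 intensities. These were the gene's own and the lowest called well above background on that array. Their log2 values were averaged and set against the control mean.

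The members, lists, tests and alternatives were chosen with earlier results of these data known. The genes named are all members, 8 relatives, up to 3 changed genes with the smallest p per list or else the 1 with the smallest p, and the 3 nearest profiles; some of these are not reported here, and others are said to be named outside this rule or for a known role. With 3 tumours per group, an exact permutation test of a single gene cannot go below 0.1. Alternatives were quantile scaling, normexp (offset 50) with quantile scaling, the authors' table, no filter and a filter on all 6 arrays, a mean over the probes of a gene, a replicate block, and each tumour left out.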

Additional observations from a re-analysis of the deposited data

How the results depend on the processing

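All genes called numbered 730 (617 lower, 113 higher), 1542 with normexp (963 lower, 579 higher), 81 of 37001 without the filter on dim probes, and 0 to 365 with a tumour left out; where 0 were called, without miR-124a 2 or control 2, 4078 and 4723 had an unadjusted p under 0.05 (limma). The 2 members called became 1 under the filter on all 6 arrays, which drops Fabp1, and 0 to 2 with a tumour left out, 0 without miR-124a 2, control 1 or control 2 and 1 without miR-124a 1. The 4 fatty acid handling genes became 10 with normexp, 0 without the filter and 0 to 3 with a tumour left out. The 16 marker genes became 26 with normexp, 4 without the filter and 0 to 12 with a tumour left out. Fabp1 lay between -3.08 and -2.72 and Fabp2 between -2.14 and -1.85 with a tumour left out. Fabp3 turned to 0.087 with quantile scaling, 0.10 with normexp, 0.061 without miR-124a 1 and 0.14 without control 2 (range -0.22 to 0.14). Crabp1 turned to -0.05, -0.11 and -0.20 without miR-124a 1, miR-124a 2 and control 2, (range -0.20 to 0.31), and Cd68 to 0.023 without control 1 (range -0.16 to 0.023). The cause was not tested, other than that a stricter filter tests fewer genes and a left-out tumour leaves fewer samples. Deviations from the group mean were correlated across genes. Same-numbered tumours gave -0.16, -0.04 and -0.06, and unlike-numbered ones -0.21 to 0.34. With 3 tumours per group these values cannot settle whether the replicate number pairs tumours. With the replicate block Fabp1 stayed at -2.88 and Fabp2 at -2.04 (adjusted p = 0.110 each, limma). That fit called 0 genes in all, with 0 members, 0 fatty acid handling genes and 0 marker genes. In it 4955 genes had an unadjusted p under 0.05 (limma). Probes near background, such as those of Fabp1 and Fabp6 and that of Fabp2 in miR-124a tumours, limit the size of a fold.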

Other observations

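A pair of relatives that were too dim to be tested were well above background in single tumours. Fabp9, the testis member, had 0.87, 0.88 and 8.69 in miR-124a tumours and 0.85, 8.64 and 1.34 in control tumours, and was well above background in miR-124a 3 and control 2 alone. Rbp2, a retinol carrier of the intestine, had 1.76, 0.79 and 6.33 in miR-124a tumours and 1.98, 1.65 and 2.22 in control tumours, and was well above background in miR-124a 3 alone. Pmp2 lay between 0.63 and 0.77 in all 6 tumours.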
